A study of Mus musculus with 4 samples.

Results

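The genes described here are those of the 3 central routes of carbohydrate breakdown, which are glycolysis with lactate export, the pentose phosphate pathway and the citrate cycle, together with Acod1 and Acly, which use citrate cycle intermediates. A list of 47 genes was matched by symbol to the array's annotation, and 43 of them had a probeset that names 1 gene only, of 19938 genes measured in this way. These were 17 glycolysis genes, 6 pentose phosphate genes, 18 citrate cycle genes and the 2 genes of citrate use. A gene with several such probesets is given by the one with the highest mean over the 4 arrays. All 43 lay above the floor of 2.52, the median log2 signal of the probesets that name 1 gene, on every array, and the lowest value was 3.09.

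Mouse macrophages were grown from bone marrow for 7 days with supernatant of the fibroblast line L929, which secretes the growth factor M-CSF, then replated and cultured for 24 h. The first genotype was 4get/Stat6-/-, which lacks the transcription factor STAT6 and carries the 4get reporter of IL-4 transcription, and it was cultured with the cytokine IL-4 or in medium alone. The second was wild-type BALB/c, again with IL-4 or in medium. RNA from F4/80+ sorted macrophages of each of these 4 groups was hybridised to 1 whole-transcript Affymetrix array. The labels give the IL-4 concentration as 10 µg/mL and the series text as 10 mg/mL, and which unit was used was not settled here. All groups share the L929 supernatant and the sort. The 2 genotypes differ in the reporter as well as in Stat6, and the labels state the BALB/c strain for the wild type only, so effects of Stat6, of the reporter and of any strain difference cannot be told apart.

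Values are log2 signals from robust multi-array averaging (RMA), on which a difference of 1 is 2-fold. With 1 array per group there is no replicate spread, so no difference was tested and no p-value can be given. Precision is limited by how few arrays there are. Genes are said to have risen or fallen where the difference was at least 2-fold and the higher array reached the floor. The share of all genes that passed the same rule is given as the background. Comparisons share arrays, so that a high or low value on, for example, the wild-type medium array enters both the IL-4 difference in wild type and the genotype difference in medium. Signals of different genes come from different probes and are not compared with each other.

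Glycolysis splits glucose into pyruvate and ends in lactate when the pyruvate is reduced and exported. The pentose phosphate pathway branches off after glucose is phosphorylated, makes NADPH and ribose in its oxidative arm, and passes sugars back to glycolysis through transketolase and transaldolase. The citrate cycle oxidises acetyl units from pyruvate or fatty acids in mitochondria. Macrophages activated with IL-4 are generally described as relying on mitochondrial oxidation, and those activated with bacterial products as relying on glycolysis.

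The targeted gene and the cell identity were checked first. Stat6 signals were 4.25 with IL-4 and 4.54 in medium in Stat6-/- cells, against 6.68 with IL-4 and 7.34 in medium in wild-type cells, and thus 5.40-fold lower with IL-4 and 6.98-fold lower in medium. The position of its probes relative to the deleted part of the gene is not known here. The 9 macrophage markers named on the array were above the floor on every array, between 5.36 and 11.9. Of 35 markers of T cells, B cells, neutrophils, basophils or mast cells, dendritic cells, erythroid cells and fibroblasts, 10 reached the floor on any array, and the highest value was 3.41. The summed linear signal of the macrophage markers was 9857 with IL-4 and 9826 in medium in Stat6-/- cells, against 7073 with IL-4 and 10876 in medium in wild-type cells. The wild-type IL-4 array was thus the lowest, with Adgre1, Fcgr1, Mertk and Cd14 having fallen with IL-4. The part of this shift in the differences below was not tested. In such bulk RNA, fewer cells of a type and less RNA per cell cannot be told apart.

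**Figure D1:**
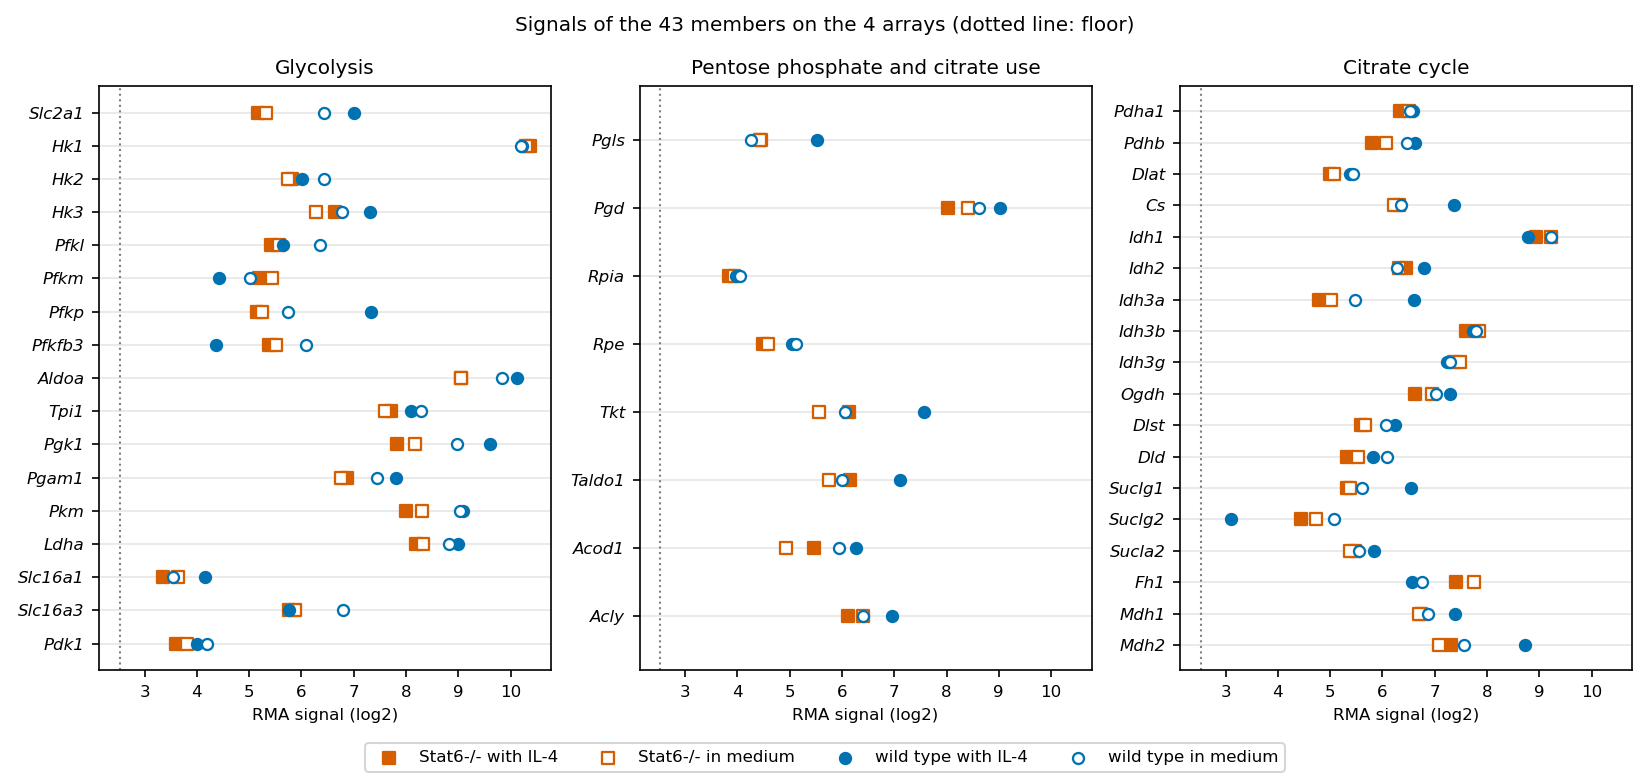
Log2 RMA signals of the 43 genes on each of the 4 arrays, by pathway (filled squares Stat6-/- with IL-4, open squares Stat6-/- in medium, filled circles wild type with IL-4, open circles wild type in medium; 1 array a point; dotted line, the floor of 2.52). The wild-type IL-4 array stands apart for genes such as Pfkp, Pfkfb3, Tkt and Suclg2. Both Stat6-/- arrays lie to the left of both wild-type arrays, by any margin, for 29 of the 43 genes.

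With IL-4, the median of each pathway in wild-type cells lay above the median of all genes, by the widest margin in the pentose phosphate pathway. In glycolysis and in the citrate cycle, some enzymes rose and others fell. Of the 43 genes, 6 rose and 3 fell, against 2.96% of all genes that rose and 6.78% that fell. Among the 17 glycolysis genes, Pfkp rose and Pfkfb3 and Slc16a3 fell. Among the 6 pentose phosphate genes, Pgls, Tkt and Taldo1 rose and none fell. Among the 18 citrate cycle genes, Mdh2 and Idh3a rose and Suclg2 fell. The median log2 difference was 0.07 for glycolysis, 0.76 for the pentose phosphate pathway and 0.16 for the citrate cycle, beside -0.10 for all 10798 genes that reached the floor.

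At a smaller rule of 1.5-fold, 3 glycolysis genes were higher and 4 lower with IL-4, 3 pentose phosphate genes were higher and none lower, and 4 citrate cycle genes were higher and 1 lower. The background at 1.5-fold was 9.05% higher and 19.2% lower. In all genes, decreases were more frequent than increases in wild-type cells, and this split depends on the scaling: 304 genes rose and 697 fell as deposited, while 403 rose and 488 fell after quantile normalization was applied again. Applying it moved the median of all genes by 0.12. Under it, 8 of the 43 genes rose and 2 fell.

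None of the genes for glucose uptake and phosphorylation passed the 2-fold rule with IL-4. The glucose transporter Slc2a1 had signals of 5.16 with IL-4 and 5.32 in medium in Stat6-/- cells, against 7.00 with IL-4 and 6.43 in medium in wild-type cells. Its IL-4 difference in wild type was 0.57, under the 1.5-fold rule. Of the hexokinases, which trap glucose as its phosphate, Hk3 had a difference of 0.53, Hk2 of -0.42 and Hk1 of 0.01. The 2 Hk1 probesets differ in their level but both place the 4 arrays within a narrow range: the brighter lay between 10.20 and 10.38 and the other between 5.06 and 5.36. They differ in sign between the genotypes. Stat6-/- minus wild type was 0.10 in medium and 0.16 with IL-4 by the brighter, against -0.18 and -0.21 by the other. Each of the 16 further probesets that name Hk1 names the ribosomal protein gene Rpl17 as well and none was used. Over the 4 arrays these 16 lay between 8.18 and 10.7, a range that holds the brighter Hk1 probeset. Whether that probeset also reads Rpl17 was not tested.

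Phosphofructokinase, the committed step, was where glycolysis genes diverged. Pfkp, the platelet-type isoform, had signals of 5.14 with IL-4 and 5.24 in medium in Stat6-/- cells, against 7.33 with IL-4 and 5.75 in medium in wild-type cells. It rose 2.98-fold with IL-4 in wild type, a log2 difference of 1.58 that was higher than in 99.1% of all genes, and its difference in Stat6-/- cells was -0.10. The liver-type isoform Pfkl had signals of 5.42 with IL-4 and 5.58 in medium in Stat6-/- cells, against 5.65 with IL-4 and 6.35 in medium in wild-type cells. The muscle-type isoform Pfkm had 5.19 with IL-4 and 5.43 in medium in Stat6-/- cells, against 4.42 with IL-4 and 5.02 in medium in wild-type cells. In wild-type cells the difference was thus -0.70 for Pfkl and -0.60 for Pfkm, past the 1.5-fold but not the 2-fold rule, and opposite in sign to that of Pfkp.

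Pfkfb3 makes fructose 2,6-bisphosphate, the strongest activator of phosphofructokinase. Its signals were 5.38 with IL-4 and 5.51 in medium in Stat6-/- cells, against 4.37 with IL-4 and 6.09 in medium in wild-type cells. It fell 3.28-fold with IL-4 in wild type, by 1.71 on the log2 scale, where only 1.36% of all genes had a lower difference, and differed by -0.13 in Stat6-/- cells. The wild-type arrays were the highest and the lowest of the 4, with both Stat6-/- arrays between them.

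The lower steps of glycolysis did not pass the 2-fold rule with IL-4. Pgk1, phosphoglycerate kinase, had a difference of 0.64, past the 1.5-fold rule, and its 3 probesets gave 0.64 to 0.65. Some of these probesets had identical signals on every array, so they are not 3 separate readings. Aldoa (aldolase), Tpi1 (triosephosphate isomerase), Pgam1 (phosphoglycerate mutase), Pkm (pyruvate kinase) and Ldha (lactate dehydrogenase) had differences between -0.18 and 0.37. Gapdh, the enzyme between Tpi1 and Pgk1, was represented by 25 probesets that also name other genes, and these gave 0.22 to 0.35 in wild type.

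The lactate transporters also differed in sign. Slc16a3, the carrier MCT4 that exports lactate, had signals of 5.77 with IL-4 and 5.88 in medium in Stat6-/- cells, against 5.76 with IL-4 and 6.80 in medium in wild-type cells. It fell by 1.04 in wild-type cells, to the level of the Stat6-/- arrays, and differed by -0.11 in Stat6-/- cells. The call rests on the scaling, since the value was -0.91 after quantile normalization was applied again and -0.85 after the intensity trend was removed by lowess. Slc16a1, the carrier MCT1, had signals of 3.34 with IL-4 and 3.64 in medium in Stat6-/- cells, against 4.16 with IL-4 and 3.53 in medium in wild-type cells, and its difference in wild type was 0.63. Pdk1, the kinase that shuts off pyruvate dehydrogenase, had a difference of -0.20.

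The sequences just before the start of transcription are shown for the glycolysis genes with the largest IL-4 differences and for Pgk1, in which hypoxia response elements are well known. ACGTG, on either strand, is a common form of the core of the hypoxia response element bound by HIF-1. The core can also read GCGTG, a form that was not counted here. The palindrome CACGTG, which contains ACGTG, is the E-box bound by MYC, among others. The 250 bases before each RefSeq start in build GRCm38.p6 are given 5′ to 3′ on the gene's own strand, in lower case with every ACGTG or its reverse complement in capitals, and Pfkfb3 is shown at both of its starts.
Pfkp (chr13:6648772-6649021, minus strand): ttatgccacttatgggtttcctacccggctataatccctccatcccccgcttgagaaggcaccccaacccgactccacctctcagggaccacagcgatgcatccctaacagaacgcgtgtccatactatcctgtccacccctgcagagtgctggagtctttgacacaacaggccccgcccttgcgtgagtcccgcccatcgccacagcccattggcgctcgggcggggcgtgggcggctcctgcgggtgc
Pfkfb3 promoter 1 (chr2:11502091-11502340, minus strand): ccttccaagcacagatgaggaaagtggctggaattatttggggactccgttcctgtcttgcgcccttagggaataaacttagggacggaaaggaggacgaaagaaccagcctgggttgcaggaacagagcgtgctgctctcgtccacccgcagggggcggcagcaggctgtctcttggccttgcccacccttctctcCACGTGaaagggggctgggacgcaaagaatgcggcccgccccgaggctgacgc
Pfkfb3 promoter 2 (chr2:11553930-11554179, minus strand): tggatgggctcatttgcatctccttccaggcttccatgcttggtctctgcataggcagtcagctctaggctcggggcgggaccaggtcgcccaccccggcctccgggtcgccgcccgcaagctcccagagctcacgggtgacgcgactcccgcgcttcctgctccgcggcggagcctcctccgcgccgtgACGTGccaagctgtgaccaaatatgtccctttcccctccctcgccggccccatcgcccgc
Slc16a3 (chr11:120948817-120949066, plus strand): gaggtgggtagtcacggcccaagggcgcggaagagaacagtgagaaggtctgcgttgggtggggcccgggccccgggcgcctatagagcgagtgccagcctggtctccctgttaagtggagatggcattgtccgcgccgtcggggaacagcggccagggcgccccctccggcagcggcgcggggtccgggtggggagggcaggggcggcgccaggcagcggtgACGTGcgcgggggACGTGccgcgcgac
Pgk1 (chrX:106186850-106187099, plus strand): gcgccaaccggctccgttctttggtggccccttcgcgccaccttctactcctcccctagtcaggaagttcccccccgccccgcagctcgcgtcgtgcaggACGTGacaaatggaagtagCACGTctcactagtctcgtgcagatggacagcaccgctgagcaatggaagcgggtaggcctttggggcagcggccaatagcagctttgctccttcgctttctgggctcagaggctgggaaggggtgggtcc
Pfkp, which rose, holds no ACGTG in this window, although it holds GCGTG, as does the window before the first start of Pfkfb3. Pfkfb3 holds the CACGTG palindrome 48 bases before its first start and ACGTG 56 bases before the second, and Slc16a3, which also fell, holds ACGTG 23 and 10 bases before its start. Pgk1 holds it 146 and 127 bases before its start, once on each strand.

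Over all listed genes, 46 of 47 had a window, Idh3a being the exception. ACGTG was found in 12 of the 20 glycolysis genes (60.0%), in none of the 7 pentose phosphate genes and in 4 of 17 citrate cycle genes (23.5%). Both Acod1 and Acly held it. Of all 27025 genes with a window, 18.5% held it. Genes with several starts have more than 1 window. Counted over windows, the share was 46.9% for glycolysis and 39.1% for the citrate cycle, against 16.6% for all genes. In the citrate cycle, all 6 windows of Ogdh held it. CACGTG, which overlaps these matches, was found in 5 of the 46 genes (10.9%), against 6.86% of all genes. These were Pfkm, Pfkfb3, Ldha, Slc16a1 and Ogdh. These matches describe the sequence and do not show binding.

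Of the 4 genes of the non-oxidative arm, Tkt and Taldo1 rose with IL-4 in wild type and Rpia and Rpe did not pass the rule. The transketolase gene Tkt had signals of 6.13 with IL-4 and 5.57 in medium in Stat6-/- cells, against 7.57 with IL-4 and 6.05 in medium in wild-type cells. Taldo1, transaldolase, had 6.14 with IL-4 and 5.76 in medium in Stat6-/- cells, against 7.11 with IL-4 and 5.996 in medium in wild-type cells. Both of these enzymes of the non-oxidative arm rose with IL-4 in wild type, Tkt 2.86-fold and Taldo1 2.17-fold, and for both the wild-type IL-4 array was the highest of the 4. In Stat6-/- cells their differences were 0.57 and 0.38, positive but under the 1.5-fold rule. Rpia and Rpe, which interconvert the pentose phosphates in the same arm, had differences of -0.07 and -0.09 in wild type.

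In the oxidative arm, Pgls, which opens the lactone ring, had signals of 4.44 with IL-4 and 4.44 in medium in Stat6-/- cells, against 5.51 with IL-4 and 4.26 in medium in wild-type cells. It rose 2.38-fold in wild type with a difference of 0.01 in Stat6-/- cells. Pgd, which makes NADPH and ribulose 5-phosphate, had signals of 8.02 with IL-4 and 8.41 in medium in Stat6-/- cells, against 9.03 with IL-4 and 8.62 in medium in wild-type cells. Its IL-4 difference was 0.41 in wild type and -0.39 in Stat6-/- cells, and neither passed the 1.5-fold rule. The first enzyme, G6pdx, had no probeset that names it in the annotation used here.

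At the entrance to the citrate cycle, the pyruvate dehydrogenase genes Pdha1, Pdhb and Dlat, and Dld, which serves both this complex and the 2-oxoglutarate complex, had IL-4 differences between -0.28 and 0.16 in wild type. Cs, citrate synthase, had signals of 6.31 with IL-4 and 6.23 in medium in Stat6-/- cells, against 7.36 with IL-4 and 6.36 in medium in wild-type cells. The wild-type IL-4 array stood alone, and the difference of 0.99995 fell just short of the 2-fold rule as deposited but passed it at 1.12 after quantile normalization was applied again and at 1.15 after lowess.

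The 3 subunits of the NAD-dependent isocitrate dehydrogenase did not move as 1 unit. Idh3a, the catalytic subunit, had signals of 4.79 with IL-4 and 5.01 in medium in Stat6-/- cells, against 6.60 with IL-4 and 5.48 in medium in wild-type cells, and rose 2.18-fold with IL-4 in wild type. The other subunits, Idh3b and Idh3g, each had a difference of -0.06. Of the NADP-dependent enzymes, the cytosolic Idh1 had a difference of -0.43 and the mitochondrial Idh2 of 0.53.

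Succinyl-CoA ligase pairs the common subunit Suclg1 with Sucla2 in its ATP-forming or Suclg2 in its GTP-forming version. Suclg2 had signals of 4.44 with IL-4 and 4.74 in medium in Stat6-/- cells, against 3.09 with IL-4 and 5.08 in medium in wild-type cells. It fell 3.95-fold in wild-type cells, by 1.98 on the log2 scale, which was the largest difference of any of the 43 genes in that comparison, and its other probeset gave -1.86. Suclg1 had signals of 5.33 with IL-4 and 5.39 in medium in Stat6-/- cells, against 6.55 with IL-4 and 5.62 in medium in wild-type cells. Its difference of 0.93 was opposite in sign and passed the 2-fold rule at 1.08 after quantile normalization was applied again and at 1.13 after lowess. Sucla2 had a difference of 0.28.

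In the last steps, Mdh2, the mitochondrial malate dehydrogenase, had signals of 7.32 with IL-4 and 7.09 in medium in Stat6-/- cells, against 8.73 with IL-4 and 7.56 in medium in wild-type cells. It rose 2.25-fold in wild type and differed by 0.23 in Stat6-/- cells. The cytosolic Mdh1 had a difference of 0.52, Fh1 (fumarase) of -0.19, and Ogdh and Dlst, of the 2-oxoglutarate dehydrogenase complex, of 0.28 and 0.16. Acly, which cleaves citrate to acetyl-CoA in the cytosol, had a difference of 0.55, and Acod1, which makes itaconate from aconitate, one of 0.33.

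**Figure D2:**
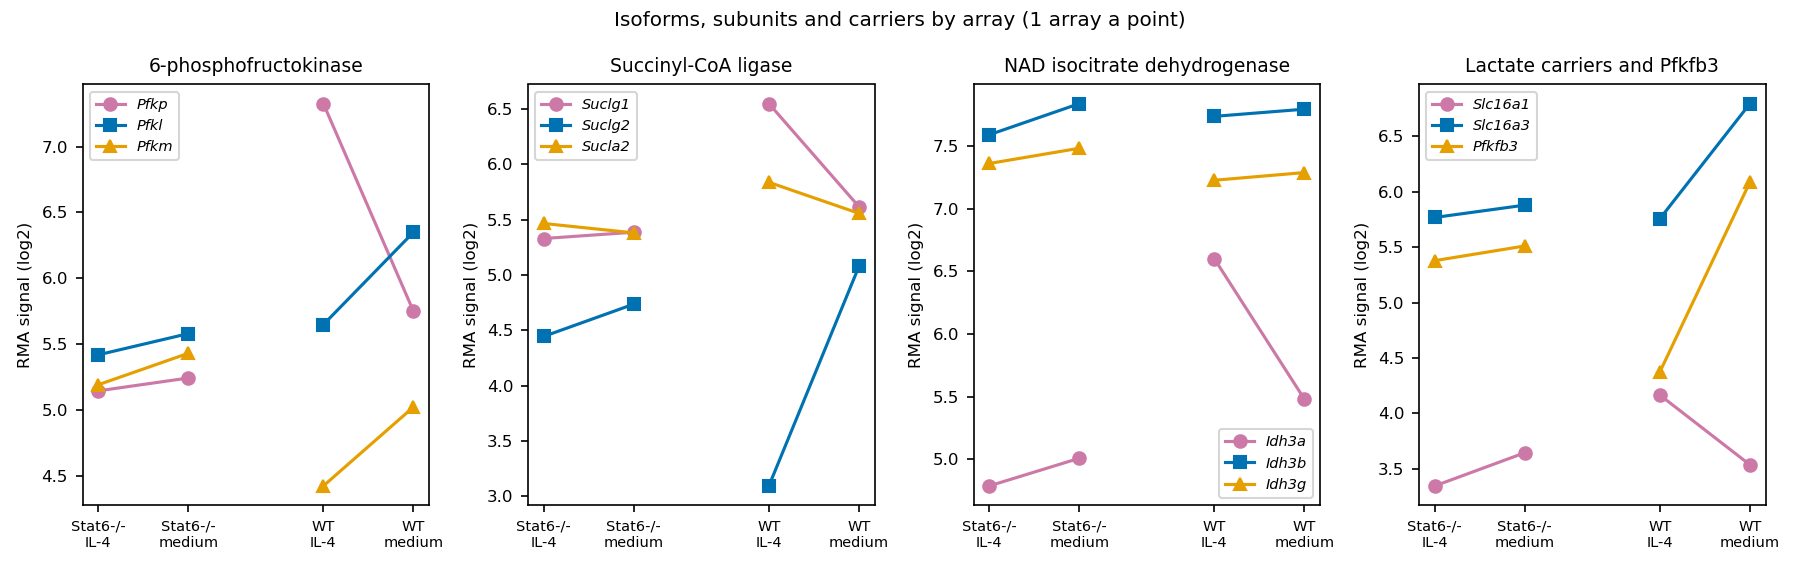
Log2 RMA signals, by array, of the phosphofructokinase isoforms, the subunits of succinyl-CoA ligase and of NAD-dependent isocitrate dehydrogenase, and the lactate carriers with Pfkfb3 (1 array a point; lines join the arrays of 1 genotype; levels of different genes are not comparable). Pfkp and Idh3a are highest and Pfkfb3 and Suclg2 lowest on the wild-type IL-4 array.

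In Stat6-/- cells, IL-4 moved none of the 43 genes past the 2-fold rule in either direction, and as deposited none past the 1.5-fold rule. The deposited differences ran from -0.39 for Pgd to 0.57 for Tkt. After quantile normalization was applied again, and likewise after lowess, 1 pentose phosphate gene was higher at 1.5-fold. The background was also small: 0.24% of all genes rose and 0.115% fell, and at 1.5-fold 2.94% were higher and 2.79% lower. The middle 95% of all genes lay between -0.60 and 0.61 in this comparison and all 43 genes lay inside it, while in the wild-type IL-4 comparison 29 of the 43 (67.4%) and 74.1% of all genes lay inside the same range. The medians in Stat6-/- cells were -0.13 for glycolysis, -0.04 for the pentose phosphate pathway and -0.15 for the citrate cycle, beside -0.04 for all genes, of which 56.2% had a difference below 0.

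The difference between the IL-4 effects, Stat6-/- minus wild type, was past 2-fold for 5 of the 43 genes. It was higher for Suclg2 (1.69) and Pfkfb3 (1.58) and lower for Pfkp (-1.67), Idh3a (-1.34) and Pgls (-1.25), against 5.77% of all genes higher and 3.2% lower. Medians of this difference were -0.18 for glycolysis, -0.77 for the pentose phosphate pathway and -0.24 for the citrate cycle, beside 0.07 for all genes. The count depended on the scaling and became 9 after quantile normalization was applied again and 11 after lowess. Pgk1, Slc16a1, Tkt and Suclg1, each lower in Stat6-/-, passed in both of these settings, Cs and Mdh2 in the second only, and their deposited values lay between -0.99 and -0.92.

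**Figure D3:**
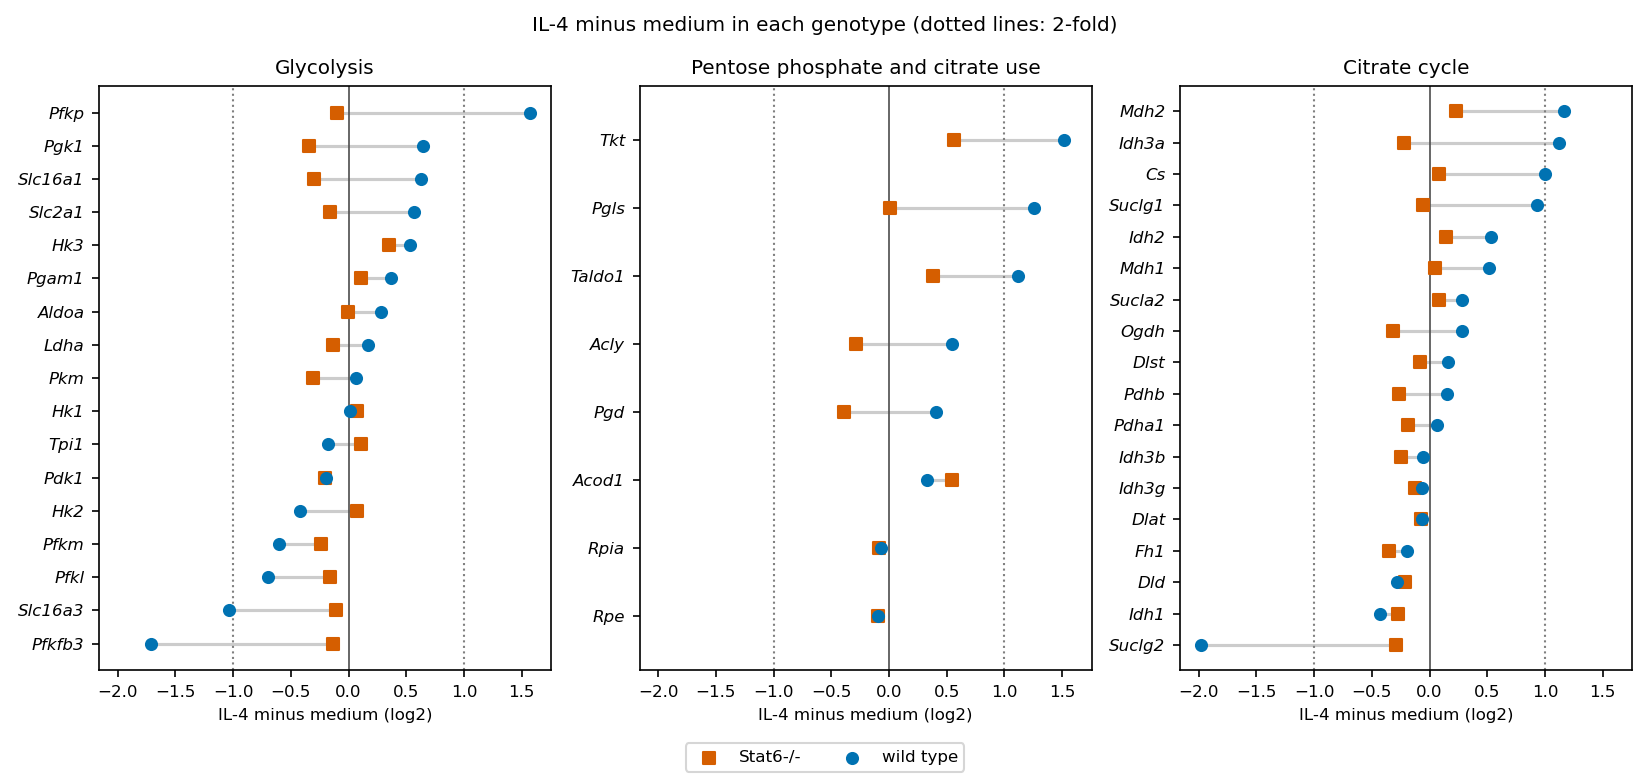
Log2 difference, IL-4 minus medium, for each of the 43 genes in Stat6-/- cells (squares) and in wild-type cells (circles), by pathway (1 array against 1; lines mark the 2-fold rule). The Stat6-/- differences stay between -0.39 and 0.57, while 9 wild-type differences pass the rule, from -1.98 for Suclg2 to 1.58 for Pfkp.

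Without IL-4, signals of the listed glycolysis genes were lower in Stat6-/- cells than in wild-type cells, spread over most steps. Slc2a1 fell by 1.11 in Stat6-/- cells and was the one glycolysis gene past the 2-fold rule. At 1.5-fold, 9 of 17 glycolysis genes were lower and none higher, against 7.89% of all genes lower and 2.92% higher. These were Slc2a1, Hk2 (-0.69), Pfkl (-0.77), Aldoa (-0.78), Tpi1 (-0.68), Pgk1 (-0.80), Pgam1 (-0.69), Pkm (-0.73) and Slc16a3 (-0.92). The glycolysis median was -0.68, beside -0.22 for the pentose phosphate pathway, -0.18 for the citrate cycle and -0.10 for all genes, of which 62% had a difference below 0. Gapdh, from its probesets shared with other genes, had -0.39 to -0.16.

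Outside glycolysis, Acod1 was the only one of the other 26 genes to fall in medium. Its signals were 5.47 with IL-4 and 4.92 in medium in Stat6-/- cells, against 6.27 with IL-4 and 5.94 in medium in wild-type cells, a difference of -1.02 in medium. Fh1 went the other way, with 7.40 with IL-4 and 7.76 in medium in Stat6-/- cells, against 6.57 with IL-4 and 6.76 in medium in wild-type cells, and a difference in medium of 0.998, just under the rule. In all, none of the 43 genes rose and 2 fell, against 0.301% and 1.15% of all genes. The scaling decides these calls: after quantile normalization was applied again Slc2a1 was at -0.96 and Acod1 at -0.85, neither past the rule, and Fh1 passed at 1.16. Under that setting 6 of 17 glycolysis genes were lower at 1.5-fold and 1 was higher, with a median of -0.54, while the citrate cycle median was -0.01.

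With IL-4, genes of all 3 pathways were among those that fell in Stat6-/- cells relative to wild-type cells. Of the 43 genes 12 fell and 2 rose, against 4.83% and 4.01% of all genes, and at 1.5-fold 23 were lower and 4 higher, against 12.4% and 10.6%. In glycolysis Pfkp (-2.18, 4.54-fold), Slc2a1 (-1.84), Pgk1 (-1.79), Pkm (-1.102) and Aldoa (-1.07) fell, and Pfkfb3 (1.004) rose. In the pentose phosphate pathway Tkt (-1.44), Pgls (-1.07) and Pgd (-1.01) fell. In the citrate cycle Idh3a (-1.81), Mdh2 (-1.41), Suclg1 (-1.22) and Cs (-1.05) fell and Suclg2 (1.35) rose. Medians were -0.66 for glycolysis, -0.99 for the pentose phosphate pathway and -0.44 for the citrate cycle, beside 0 for all genes, of which 49.8% had a difference below 0.

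Several of these calls lie close to the rule. Pgd (-0.94) and Cs (-0.96) missed it after quantile normalization was applied again, and Pfkfb3 (0.95) missed it when the arrays were shifted to 1 median. Suclg2 kept its value but did not reach a floor set at the 75th percentile of the probesets. Taldo1 had -0.97 and passed at -1.02 with the arrays shifted to 1 median.

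**Figure D4:**
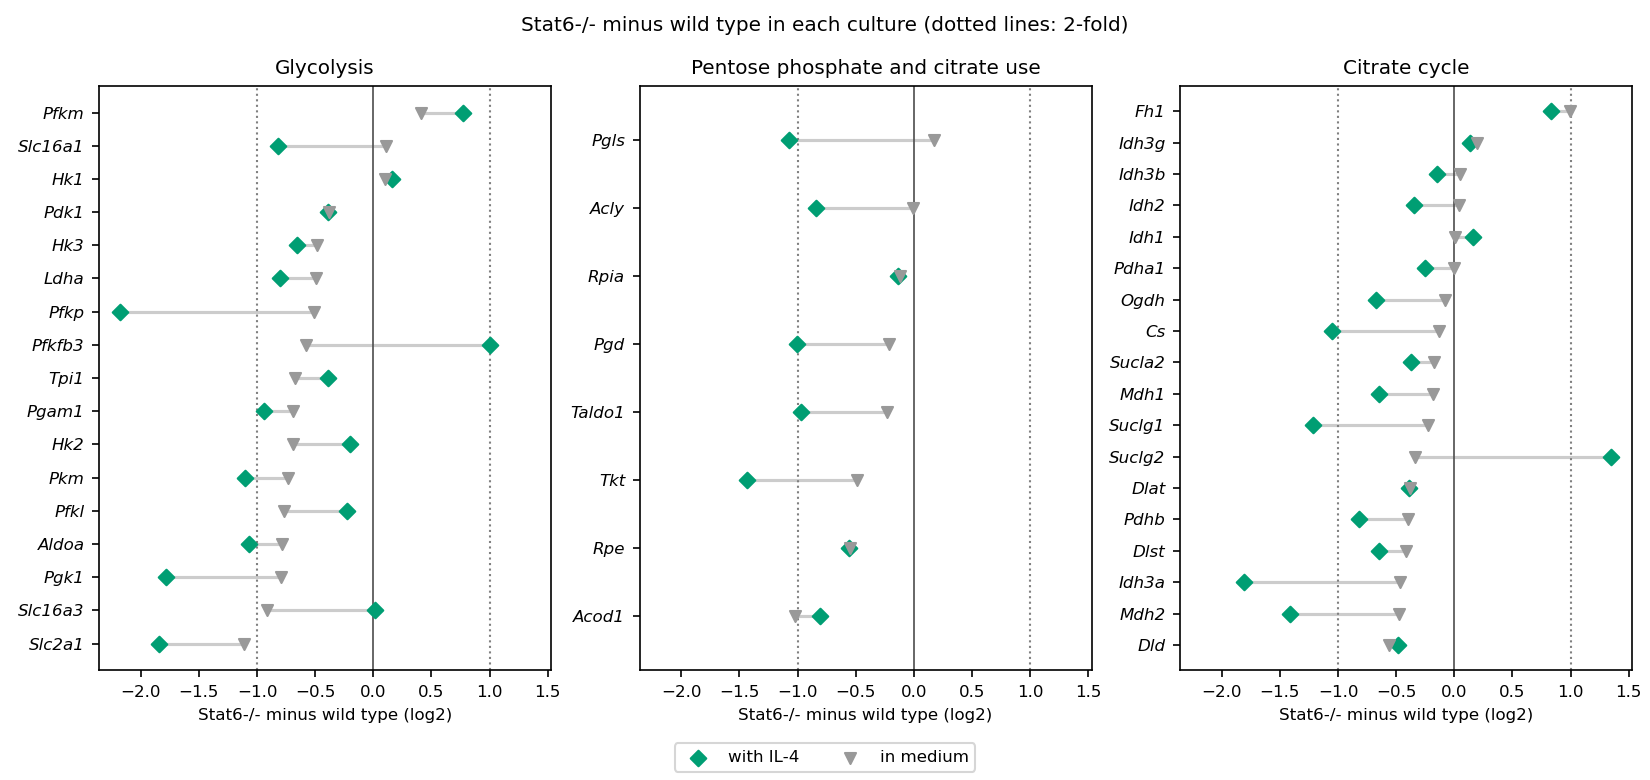
Log2 difference, Stat6-/- minus wild type, for each of the 43 genes with IL-4 and in medium, by pathway (1 array against 1; lines mark the 2-fold rule). Most genes of each pathway lie left of 0 in both cultures, and 10 of 17 glycolysis genes, 6 of 6 pentose phosphate genes and 15 of 18 citrate cycle genes lie farther left with IL-4 than in medium.

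Both Stat6-/- arrays lay below both wild-type arrays for 29 of the 43 genes, against 24.7% of all genes, and above both for 4, against 13.4% of all genes. This count was added after the values had been seen, was made on the deposited scaling only and sets no smallest gap. In medium, for example, Pdha1 had 6.516 in Stat6-/- cells and 6.518 in wild-type cells, and Acly 6.404 and 6.410. The citrate cycle median for Stat6-/- in medium was -0.18 as deposited but -0.01 after quantile normalization was applied again or after lowess. The 29 held 12 of 17 glycolysis genes, 3 of 6 pentose phosphate genes, 12 of 18 citrate cycle genes and both Acod1 and Acly. The 4 were Hk1, Pfkm, Idh3g and Fh1. Hk1 is among them by its brighter probeset only. Its other probeset had 5.06 and 5.18 in Stat6-/- cells, below 5.26 and 5.36 in wild-type cells. In Slc2a1, Aldoa, Tpi1, Pgk1, Pgam1, Pkm and Ldha the gap between the genotypes was wider than the IL-4 difference within either. Slc2a1, for example, had 5.16 and 5.32 in Stat6-/- cells and 7.00 and 6.43 in wild-type cells. The same held outside glycolysis for Rpe, Pdhb, Dlat and Dlst. It also held for Fh1, and for Hk1 by its brighter probeset, with the Stat6-/- arrays higher. Tkt, Taldo1, Pgls, Suclg2 and Pfkfb3 were not in the 29, and for them the wild-type medium array lay nearer to the Stat6-/- arrays than to the wild-type IL-4 array.

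Other genes of the same pathways, which were not on the list of 47, were described by the same rules, against the same shares of all genes, 2.96% risen and 6.78% fallen with IL-4 in wild type. Of 23 further glycolysis and lactate genes above the floor, none rose with IL-4 in wild-type cells and Slc16a7, the carrier MCT2, fell by 1.54. Its signals were 5.93 with IL-4 and 6.21 in medium in Stat6-/- cells, against 5.01 with IL-4 and 6.55 in medium in wild-type cells. In Stat6-/- cells relative to wild type in medium, the median of these 23 was -0.06, beside -0.10 for all genes. At 1.5-fold 2 of them were higher and 1 lower, against 2.92% and 7.89% of all genes. The mitochondrial glycerol phosphate dehydrogenase Gpd2 fell by 1.11 in that comparison. With IL-4, the sugar transporter Slc2a6 fell by 1.04 in Stat6-/- cells relative to wild type and the gluconeogenic enzyme Fbp1 rose by 1.04. Fbp1 was close to the floor of 2.52, with 2.81 with IL-4 and 2.87 in medium in Stat6-/- cells. Both its wild-type signals, 1.77 with IL-4 and 2.18 in medium, were below the floor. None of 5 further pentose phosphate genes moved with IL-4 in wild type, and Prps1, which makes phosphoribosyl pyrophosphate from ribose phosphate, fell by 1.21 in Stat6-/- cells with IL-4 relative to wild type.

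Of 7 genes that govern the entry of pyruvate into mitochondria, the pyruvate dehydrogenase kinase Pdk2 fell with IL-4 in wild type by 1.102 on the log2 scale and none rose. Of 21 further citrate cycle and carrier genes, Slc25a13 rose and Slc25a10, the dicarboxylate carrier, fell by 1.01. Slc25a13, the aspartate-glutamate carrier citrin of the malate-aspartate shuttle, had signals of 3.98 with IL-4 and 3.91 in medium in Stat6-/- cells, against 5.85 with IL-4 and 4.40 in medium in wild-type cells. It rose 2.72-fold in wild type and differed by 0.08 in Stat6-/- cells. Slc25a12, its paralog, named here after its value was seen, had a difference of -0.14 in wild type. The cytosolic aconitase Aco1 fell by 1.22 in Stat6-/- cells with IL-4 relative to wild type.

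Among 19 regulators of carbohydrate use, 2 rose and 2 fell with IL-4 in wild-type cells. Myc, a transcription factor that drives many glycolysis genes, had signals of 2.88 with IL-4 and 2.93 in medium in Stat6-/- cells, against 5.95 with IL-4 and 3.57 in medium in wild-type cells. It rose 5.22-fold in wild type and differed by -0.05 in Stat6-/- cells. Hif1a, the oxygen-regulated subunit of HIF-1, had signals of 7.80 with IL-4 and 8.28 in medium in Stat6-/- cells, against 6.83 with IL-4 and 8.56 in medium in wild-type cells. It fell 3.32-fold in wild type and differed by -0.47 in Stat6-/- cells. HIF-1 is governed largely through the stability of this protein, which was not measured. Ppargc1b, a coactivator of mitochondrial genes, rose by 1.03 and Txnip, which restrains glucose uptake, fell by 1.05. In Stat6-/- cells relative to wild type, Rictor, a subunit of mTOR complex 2, fell by 1.03 in medium, and with IL-4 Myc fell by 3.08 and Nfe2l2, the antioxidant regulator NRF2, fell by 1.13.

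HIF-1 targets outside glycolysis gave a median of -0.56 with IL-4 in wild type and of -0.06 in Stat6-/- cells, over 11 genes above the floor, beside -0.10 and -0.04 for all genes. None of the 11 rose and 2 fell in wild type, against 2.96% and 6.78% of all genes. Vegfa, the vascular growth factor, had signals of 6.15 with IL-4 and 6.21 in medium in Stat6-/- cells, against 4.57 with IL-4 and 6.21 in medium in wild-type cells, and fell by 1.64 in wild type. Bnip3, a mitophagy receptor, fell by 1.28 by its brighter probeset, while its other probeset gave -0.39. With IL-4, Vegfa rose in Stat6-/- cells relative to wild type by 1.57.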

How the data were processed

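The authors deposited log2 signals per probeset, made with RMA in Affymetrix Expression Console, per the submitters' processing notes; for versions, settings and build the sources used here give nothing. RMA corrects the background, normalizes arrays by quantiles and summarises probes. Of 35557 probesets, 21789 name 1 gene, 1621 several and 12147 none in the platform annotation; 21698 matched the RefSeq gene table. Differences of log2 signals were computed with pandas 2.3.3 and numpy 2.4.6 in Python 3.11.15, and lowess with statsmodels 0.14.6; the script was tested on simulated data. The floor was 2.52 and the rules were 2-fold and 1.5-fold. Other lists' genes are named where past 2-fold between any 2 arrays, at most 6 per list. The members and lists were chosen with earlier results of these data known. No test was possible with 1 array per group. Alternatives were quantile normalization again, a median shift, lowess (fraction 0.3), other floors (none, the 75th percentile, or values raised to the floor) and other probeset choices. Gpi1, Eno1, Gapdh and G6pdx had no probeset naming them alone.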

Additional observations from a re-analysis of the deposited data

Results flagged for a closer look

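For 2 of the genes past the 2-fold rule in the difference of IL-4 effects, the array with IL-4 lay on opposite sides of the medium array in the 2 genotypes. Pfkp differed by -0.10 in Stat6-/- cells and by 1.58 in wild-type cells, so that the IL-4 difference was lower by 1.67 in Stat6-/- cells (-1.67). Idh3a differed by -0.22 in Stat6-/- cells and by 1.12 in wild-type cells, which made -1.34. With 1 array per group, neither difference between the genotypes was tested.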

How the results depend on the processing

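Of 480 values recomputed under the alternatives, 431 kept their side of the rule, stayed within 1.5 times for a count of genes, or moved by no more than the tolerance of 0.1 for a median. The one change of sign was a median near 0, that of the pentose phosphate genes for IL-4 in Stat6-/- cells, at -0.0394 as deposited and 0.00723 with a floor at the 75th percentile. The values that did change came mostly from the 2 scalings that act on signal level. After quantile normalization was applied again, the citrate cycle median for IL-4 in wild type was 0.30; for Stat6-/- in medium 1 of the 43 genes was past 2-fold, with medians of -0.54 for glycolysis, -0.12 for the pentose phosphate pathway and -0.00894 for the citrate cycle; and 9 genes were past 2-fold in the difference of IL-4 effects. After lowess, the medians for IL-4 in wild type were 0.18, 0.91 and 0.34 for glycolysis, the pentose phosphate pathway and the citrate cycle. In medium, 1 gene was past 2-fold in Stat6-/- cells, and the medians were -0.53, -0.0675 and -0.0114 in the same order of pathways. With IL-4, the glycolysis median in Stat6-/- cells was -0.56. The difference of IL-4 effects had 11 genes past 2-fold and medians of -0.30, -0.90 and -0.37. A floor at the 75th percentile, which drops pentose phosphate genes, put their median for IL-4 in wild type at 1.12, and the mean of all probesets put that of glycolysis at 0.17. Among all genes called for IL-4 in wild type, 30.4% rose as deposited, 45.2% after quantile normalization again and 46.0% after lowess. For Stat6-/- in medium these shares were 20.8%, 37.2% and 28.9%, and 64.3%, 52.3% and 53.6% for that between the IL-4 effects. Why these scalings differ from the deposited values was not tested. No paired analysis was possible because each group has 1 array. The absence of replicates limits every value, and differences near 2-fold changed sides most.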

Other observations

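The palindrome bound by STAT6, with TTC and GAA separated by 4 bases, was looked for in the same 250 bases before the start. It was found in 6 of the 46 listed genes with a window (13.0%), which were Hk3, Gpi1, Ldha, Pgd, Idh3b and Fh1, against 6.76% of all genes. None of these with a value was past the 2-fold rule with IL-4 in wild-type cells, where Hk3 was at 0.53, Pgd at 0.41, Ldha at 0.17, Idh3b at -0.06 and Fh1 at -0.19, and Gpi1 had no value. In Stat6-/- against wild-type cells with IL-4, Pgd was past 2-fold at -1.01, Ldha (-0.80), Hk3 (-0.66) and Fh1 (0.84) were past 1.5-fold, and Idh3b was at -0.15. A missing match says only that these letters are not in this window.

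The subunits of succinate dehydrogenase, named here after their values were seen, had IL-4 differences above 0 in wild-type cells without passing the 2-fold rule: 0.79 for Sdhb, 0.70 for Sdhd, 0.52 for Sdhc and 0.14 for Sdha. In Stat6-/- cells the differences were 0.29 for Sdhb, -0.13 for Sdhd, 0.28 for Sdhc and -0.49 for Sdha.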
